A study of Homo sapiens with 18 samples.

Results

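PURPL#1-OE is one of a pair of PURPL overexpression groups in a human fibroblast RNA-seq series, and it is described here against the control group sequenced with it, Ctrl. The comparison holds 6 of the 18 libraries of the series: 3 of PURPL#1-OE and 3 of Ctrl, chosen by their labels and column headings alone. All 18 libraries come from BJ skin fibroblasts. The remaining ones are 3 of PURPL#2-OE and 9 of a separate experiment. That experiment has its own control (sgCtrl) and guides labelled sgRNA-PURPL#1 and sgRNA-PURPL#2. The labels do not say which vector was used, whether a number stands for a construct, a clone or a pool, what Ctrl carried, or whether replicates were separate cultures. If the replicates are technical, the p-values measure only technical spread. The series title speaks of senescence controlled in both directions by PURPL, with overexpression as the direction that speeds ageing, and its design text describes both arms as cell lines and the guides as CRISPRi, in which a nuclease-dead Cas9 represses the targeted promoter.

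PURPL is a long noncoding RNA that has been described as binding the nucleolar protein MYBBP1A. Senescent fibroblasts have left the cell cycle for good and usually carry more of the cell cycle inhibitors p21 (CDKN1A) and p16 (CDKN2A), less lamin B1 (LMNB1), and a secretome of cytokines, chemokines and proteases. Type I interferon, a cytokine made on sensing foreign or misplaced nucleic acid, acts through its receptor on a set of antiviral genes whose promoters carry the interferon-stimulated response element. NF-kB drives many cytokine and chemokine genes, and the DREAM and MuvB complexes act on mitotic genes through a short promoter element called CHR.

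Each library held between 19316454 and 27985649 reads counted to genes. Replicates of a group correlated at 0.992 to 0.994 across genes on log2 values, against 0.972 to 0.975 between Ctrl and PURPL#1-OE. Mitochondrial genes took 4.26% to 4.80% of the counts in Ctrl and 4.97% to 6.24% in PURPL#1-OE, and the 10 largest genes of each library took 7.88% to 8.24% and 9.56% to 9.89%. The part of these differences in the results below was not tested. Fibroblast identity was plain: of 20 fibroblast markers, 19 exceeded 1 CPM (a read count scaled to the size of its library), and their summed level was 36959 to 38686 CPM in Ctrl and 43285 to 44975 in PURPL#1-OE. Of 15 immune markers 6, among them CD3E, had no count in any of the 6 libraries, and the 15 together summed to 2.28 to 3.48 CPM in Ctrl and 1.68 to 2.96 CPM in PURPL#1-OE. Of 17 keratinocyte markers, 3 had no count (KRT5, KRT1 and DSC3) and 7 exceeded 1 CPM, led by the desmosomal genes DSP (523 to 554 CPM in Ctrl, 498 to 513 in PURPL#1-OE) and PERP (213 to 220 and 300.0 to 324 CPM), and the 17 summed to 751 to 790 CPM in Ctrl and 831 to 839 CPM in PURPL#1-OE. CDH1, the epithelial cadherin, had 68 counts over the Ctrl libraries and 215 over those of PURPL#1-OE, and the integrin ITGB4 had 82 and 187. KRT15 (50 and 19 counts) and LAMB3 (150 and 67) went the other way. By edgeR's quasi-likelihood test, described below, 3 of 9 tested keratinocyte markers were called higher and 2 lower. CDH1 ranged from 1.36 to 5.18 CPM in PURPL#1-OE and lost its call when any 1 Ctrl library was left out (adjusted p 0.0605 to 0.0776). In bulk RNA, fewer cells of a kind and less RNA per cell cannot be told apart.

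PURPL itself, the overexpressed gene, read 67.3, 66.7 and 59.2 CPM in the 3 Ctrl libraries and 166, 178 and 176 CPM in the 3 of PURPL#1-OE. Every overexpression library stood above every control library. The change was 2.69-fold, or 1.43 ± 0.059 (SE) on the log2 scale, with an adjusted p of 1.85e-18 by edgeR's quasi-likelihood test with Benjamini-Hochberg adjustment, which is the test used throughout. The control cells thus already expressed the gene. PURPL lies on chromosome 5 (GRCh38, chr5:27217714-27496994, plus strand, GENCODE v29), and of 12 other annotated genes within 1 Mb of it 0 had enough counts to be tested. The counts are per gene, so they do not tell an introduced transcript from the endogenous one.

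Across the 61544 genes listed, 15267 had enough counts to be tested and 6047 of them (39.6%) differed between PURPL#1-OE and Ctrl at an adjusted p under 0.05, which is what "called" means below. Higher calls numbered 2978 (19.5% of genes tested) and lower calls 3069 (20.1%). This split moved with the scaling, to 2418 higher and 3600 lower with library totals and to 3227 higher and 2803 lower with upper-quartile scaling. Large changes were lopsided: 803 genes (5.26%) were called and at least 2-fold lower, while 328 (2.15%) were called and at least 2-fold higher. All 3 PURPL#1-OE libraries stood above all 3 of Ctrl in 25.2% of genes and below them in 24.8%. The median log2 fold change over all genes tested was 0.0076. With this background, a list in which 4 in 10 members are called is no different from genes at large, and the lists below are read against it. The share called was 43.3% among protein-coding genes and 24.5% among long noncoding RNAs, so the yardstick for a protein-coding list is slightly higher.

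**Figure D1:**
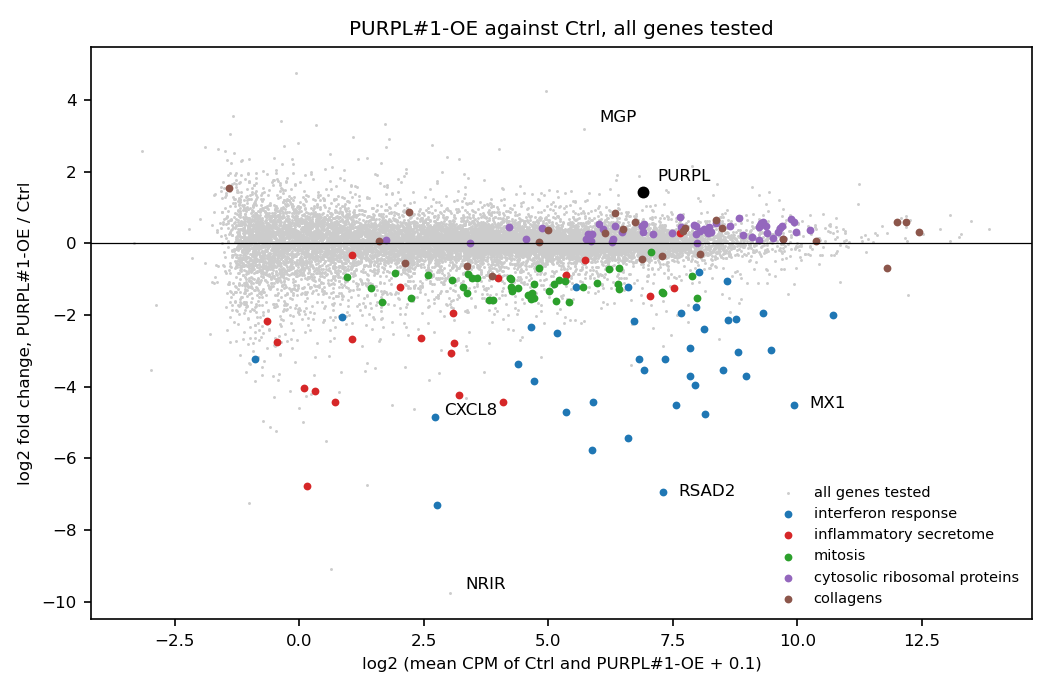
Each point is 1 of 15267 genes, with the mean level of both groups (log2 CPM plus 0.1) on the horizontal axis and the log2 fold change of PURPL#1-OE over Ctrl on the vertical axis, and members of 5 gene lists in colour. The interferon response genes (blue) and the inflammatory secretome (red) form the lower cloud, mitotic genes (green) sit near -1.22, and ribosomal protein genes (violet) lie just above 0.

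Of the gene lists examined, 3 fell furthest and carry known promoter elements, so stretches of their promoters are shown first, from RefSeq (GRCh38.p14), on the strand of the gene and ending before the annotated start. Capitals mark the motif or its reverse complement. Of the interferon-response promoters, those of BST2 (tetherin, which holds budding virus at the cell surface; chr19:17405715-17405784, minus strand), IFI27 (chr14:94110611-94110680, plus strand), IFI44L (chr1:78620345-78620414, plus strand) and OAS3 (an oligoadenylate synthetase that senses double-stranded RNA; chr12:112938432-112938473, plus strand) hold the interferon-stimulated response element, searched as a pair of TTTC blocks with any 2 bases between them:
BST2: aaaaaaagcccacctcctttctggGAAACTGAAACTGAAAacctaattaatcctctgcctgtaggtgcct
IFI27: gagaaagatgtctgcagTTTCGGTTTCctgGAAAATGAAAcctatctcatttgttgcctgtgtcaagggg
IFI44L: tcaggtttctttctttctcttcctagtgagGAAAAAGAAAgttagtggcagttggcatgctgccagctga
OAS3: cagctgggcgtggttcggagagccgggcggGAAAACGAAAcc

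The NF-kB motif, searched as GGANTTTCC, stands in the promoters of the neutrophil-attracting chemokines CXCL8 (chr4:73740448-73740516, plus strand) and CXCL1 (chr4:73869285-73869353, plus strand) and of the cytokine IL6 (chr7:22727098-22727166, plus strand):
CXCL8: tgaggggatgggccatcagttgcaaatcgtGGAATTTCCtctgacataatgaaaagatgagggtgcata
CXCL1: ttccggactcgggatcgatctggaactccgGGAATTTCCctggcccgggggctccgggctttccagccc
IL6: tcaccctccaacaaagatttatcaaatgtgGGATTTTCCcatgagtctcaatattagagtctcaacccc

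The CHR element, searched as TTTGAA, stands in the promoters of MKI67 (the proliferation marker Ki-67; chr10:128126424-128126482, minus strand), TOP2A (topoisomerase II alpha; chr17:40418012-40418077, minus strand), DLGAP5 (a spindle protein; chr14:55191659-55191724, minus strand) and KIF4A (a chromosome-arm kinesin; chrX:70290040-70290103, plus strand):
MKI67: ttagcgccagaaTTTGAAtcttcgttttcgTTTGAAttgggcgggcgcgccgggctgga
TOP2A: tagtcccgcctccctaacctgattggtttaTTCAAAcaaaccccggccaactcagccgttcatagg
DLGAP5: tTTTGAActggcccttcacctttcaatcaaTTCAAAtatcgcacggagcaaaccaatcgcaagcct
KIF4A: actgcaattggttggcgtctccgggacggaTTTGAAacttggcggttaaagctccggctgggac

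These motifs were counted on both strands of the 250 bases before each start, and matches of different motifs were allowed to overlap. A RefSeq promoter was matched for 10738 of the 15267 genes tested. The interferon element was found in 17 of 30 promoters of interferon response genes (56.7%), against 2.58% of the genes tested and 3.02% of all 35116 promoters. The NF-kB motif was found in 10 of 16 promoters of the inflammatory secretome (62.5%), against 1.45% of the genes tested and 1.45% of all promoters. CHR was found in 21 of 36 promoters of mitotic genes (58.3%), against 8.88% of the genes tested and 13.3% of all promoters. Among the 529 genes called at least 2-fold lower that had a matched promoter, 10.6% held the interferon element, 4.73% the NF-kB motif and 15.9% CHR. Among the 188 called at least 2-fold higher that had one, the shares were 2.13%, 1.06% and 11.2%. A match is a run of letters, not a demonstration of binding, and the lists are known to be rich in these elements.

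The interferon response list fell as a whole. Of 41 entries, 38 were tested, and 38 of 38 fell, 37 of them at least 2-fold, with a median log2 fold change of -3.23 and a range from -7.30 to -0.79. Summed over the list, these genes took 1.70% to 1.75% of all counts in the Ctrl libraries and 0.277% to 0.281% in the PURPL#1-OE libraries. RSAD2, the antiviral enzyme viperin, read 325, 309 and 312 CPM in Ctrl and 2.25, 2.47 and 2.97 CPM in PURPL#1-OE, which is 0.813% of the control level (log2 fold change -6.94 ± 0.0901, adjusted p = 1.01e-30). MX1, a GTPase that blocks influenza and other viruses, read 1888, 1852 and 1883 CPM in Ctrl and 77.9, 82.2 and 88.3 CPM in PURPL#1-OE, 4.42% of control. OAS1 read 182, 193 and 193 CPM against 4.40, 3.82 and 4.91 CPM. In each of these genes the groups were far apart and the replicates close together.

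IFI44L (545 ± 13.1 to 19.96 ± 2.61 CPM, mean and SD, n = 3), OAS2 (463 ± 6.26 to 29.9 ± 1.61 CPM), OAS3 (361 ± 8.83 to 15.7 ± 1.02 CPM) and MX2 (429 ± 3.74 to 33.2 ± 2.102 CPM) fell by similar factors. CMPK2, a mitochondrial nucleotide kinase next to RSAD2 in the genome, fell from 116 ± 5.11 to 2.11 ± 0.271 CPM. BST2 read 77.4, 73.9 and 85.3 CPM in Ctrl and 2.65, 3.73 and 2.69 CPM in PURPL#1-OE. IFI27 read 13.4, 14.03 and 10.4 CPM against 0.572, 0.270 and 0.435 CPM. OASL fell from 13.4 ± 0.334 to 0.0771 ± 0.0312 CPM. The long noncoding RNA NRIR, a negative regulator of the interferon response, had 1146 counts over the Ctrl libraries and 1 over the PURPL#1-OE libraries, a depth-scaled ratio of 1264 with a 95% interval of 226 to 49956 that covers counting error only. These intervals are wide because so few reads were left.

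The lowest fold changes also included several immune effector genes. CXCL11, a T-cell chemokine, had 207 counts in Ctrl and 0 in PURPL#1-OE, at least 76.1-fold lower on a floor of 3 counts over the group. CXCL10 had 142 counts against 1 (ratio 157, 95% interval 27.7 to 6228), the guanylate-binding proteins GBP5 342 against 3 and GBP6 84 against 2. IDO1, which degrades tryptophan, fell from 2.66 ± 0.0465 to 0.0477 ± 0.0826 CPM. Of the antigen presentation list, 16 of 18 entries were tested and 15 fell, 9 at least 2-fold, with 0 higher and a median of -1.06. B2M, the shared light chain of class I HLA, fell from 2535 ± 37.0 to 1192 ± 29.8 CPM and the peptide transporter subunit TAP1 from 57.1 ± 5.01 to 14.9 ± 1.29 CPM. HLA-B fell too (log2 fold change -1.72), as did HLA-C (-1.404), though reads of these near-identical genes can be assigned to the wrong copy. CXCL11, IDO1 and HLA-B also share bases with another gene on their own strand, which makes their counts less certain.

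The inflammatory secretome fell too. Of 27 entries, 21 were tested: 19 fell, 16 of them at least 2-fold, and 1 rose, with a median of -2.65. CXCL8 read 16.6, 17.7 and 18.1 CPM in Ctrl and 1.00, 0.854 and 0.870 CPM in PURPL#1-OE, 5.26% of control. CXCL1 read 27.9, 31.9 and 38.005 CPM against 1.36, 1.17 and 1.94 CPM. IL6 read 14.7, 15.9 and 14.1 CPM against 2.43, 1.98 and 2.02 CPM (log2 fold change -2.79 ± 0.141, adjusted p = 2.52e-16). No PURPL#1-OE library reached a Ctrl library in any of them. IL1B fell from 14.6 ± 2.15 to 1.75 ± 0.227 CPM and IL1A from 9.22 ± 1.69 to 1.496 ± 0.542 CPM. The monocyte chemokine CCL2 fell from 193 ± 9.66 to 69.3 ± 2.67 CPM, and PTGS2, the inducible cyclooxygenase, from 259 ± 7.88 to 110 ± 4.58 CPM. The member that rose was the stromal chemokine CXCL12 (log2 fold change 0.27 ± 0.0568), and IL11, at -0.34, was not called; both are named after their values were seen, as the exceptions to the list.

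Secreted proteases and growth factors were mixed but mostly lower. In the protease list (24 entries, 21 tested) 15 fell and 4 rose, with a median of -0.46. The collagenase MMP1 read 585, 606 and 599 CPM in Ctrl and 91.6, 90.0 and 98.7 CPM in PURPL#1-OE, 15.6% of control. The stromelysin MMP3 fell from 229 ± 12.99 to 58.2 ± 3.16 CPM and the urokinase PLAU from 37.1 ± 1.502 to 5.68 ± 0.341 CPM. ADAMTS5, an aggrecan-cleaving protease, rose from 24.6 ± 1.00 to 50.8 ± 3.73 CPM. In the growth factor list (28 entries, 26 tested) 17 fell and 8 rose, with a median of -0.43. The EGF-receptor ligands EREG (408 ± 9.09 to 161 ± 3.80 CPM) and AREG (7.63 ± 0.379 to 1.29 ± 0.296 CPM) were among those that fell. GDF15, a stress cytokine, fell from 5.79 ± 0.866 to 1.28 ± 0.150 CPM. CCN2, connective tissue growth factor, rose: it read 279.5, 261 and 279 CPM in Ctrl and 803, 836 and 798 CPM in PURPL#1-OE.

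Cell cycle genes formed the next group. Of 44 mitosis entries, 42 were tested and 42 of 42 fell, 29 of them at least 2-fold, within a narrow range from -1.65 to -0.24 and with a median of -1.22. MKI67 read 375, 360 and 394 CPM in Ctrl and 120, 140 and 130 CPM in PURPL#1-OE, 34.5% of control (log2 fold change -1.54 ± 0.0666, adjusted p = 1.53e-15). TOP2A, which untangles chromosomes, read 231, 221 and 224 CPM against 86.7, 87.1 and 90.0 CPM. The spindle proteins CENPF (228 ± 10.6 to 87.5 ± 2.74 CPM), TPX2 (120 ± 1.74 to 49.8 ± 1.22 CPM), KIF4A (38.8 ± 2.15 to 13.4 ± 0.553 CPM) and DLGAP5 (86.4 ± 2.00 to 39.9 ± 2.35 CPM) fell alike. The list therefore moved almost as a block, in contrast to the wide spread of the interferon genes.

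The DNA replication list went with it: 39 of 41 entries were tested, 37 fell, 16 of them at least 2-fold, and 0 rose, with a median of -0.87. RRM2, the ribonucleotide reductase subunit that limits nucleotide supply in S phase, read 89.9, 88.0 and 98.2 CPM in Ctrl and 36.7, 35.5 and 37.2 CPM in PURPL#1-OE. The sliding clamp PCNA fell from 280 ± 15.99 to 153 ± 4.17 CPM. The checkpoint adaptor CLSPN fell from 33.0 ± 0.677 to 9.01 ± 0.921 CPM. The replicative helicase subunit CDC45 fell from 13.01 ± 0.634 to 3.68 ± 0.216 CPM. DUT, which keeps uracil out of DNA, was among those not called (0.03) and is named after its value was seen. Of 30 tested genes of homologous recombination and the Fanconi pathway, 24 fell and 1 rose, with a median of -0.94: FANCI fell from 48.9 ± 3.65 to 23.9 ± 1.498 CPM and RAD51AP1 from 16.1 ± 0.854 to 5.53 ± 0.804 CPM. The 1 gene that rose, named for that reason, was FANCE (0.40). Of 15 tested histone genes 9 fell and 0 rose, with a median of -0.38. Most histone messages lack poly(A) tails and have near-identical copies, so poly(A)-selected counts of them are uncertain.

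**Figure D2:**
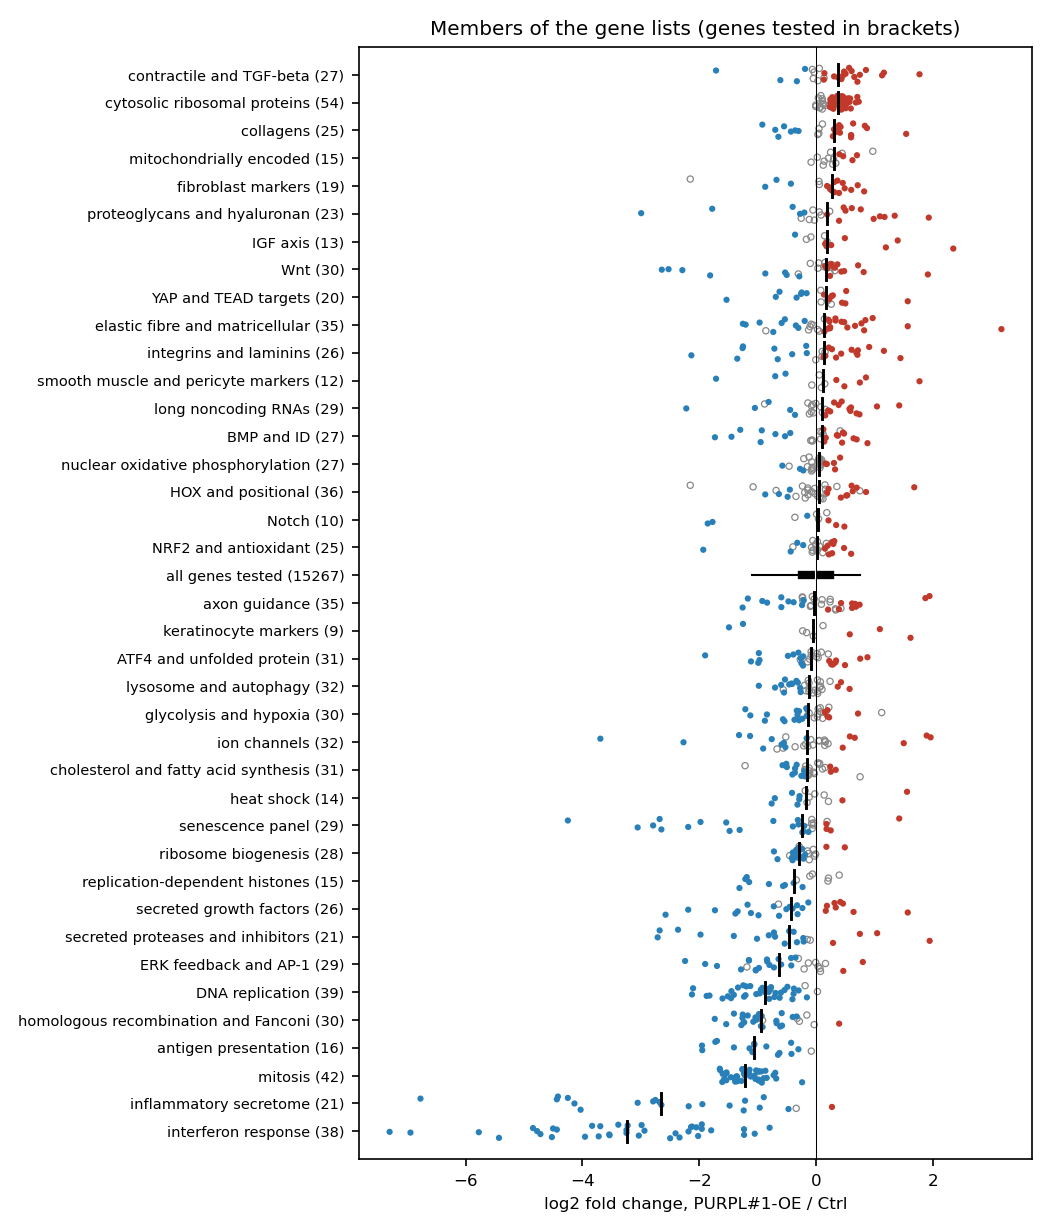
Each row is a reported gene list with at least 9 tested members, ordered by its median (black bar), and each point a member's log2 fold change of PURPL#1-OE over Ctrl: red and blue were called higher and lower, open grey were not called. The row for all genes gives the middle 50% (thick) and 90% (thin) of the 15267 genes. The interferon response list, at -3.23, and the contractile list, at 0.38, are the ends of the order.

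A panel of 30 genes used to describe senescence was read gene by gene; 29 were tested, 18 fell, 4 rose and 7 were not called. Of 7 tested genes of the CDK inhibitor list, CDKN1B rose and CDKN3, a phosphatase of CDK2, fell (log2 fold change -0.97). CDKN1A read 78.7, 81.0 and 73.7 CPM in Ctrl and 78.4, 65.9 and 65.4 CPM in PURPL#1-OE, so the groups overlapped (log2 fold change -0.15 ± 0.0659, adjusted p = 0.0649). It was called lower, at -0.25, when the first PURPL#1-OE library was left out (adjusted p = 0.00492) and, at -0.19, without the third Ctrl library (adjusted p = 0.0355), and at -0.20 with library totals as the scaling (adjusted p = 0.0238). CDKN2A read 10.8, 10.9 and 9.91 CPM against 10.3, 12.004 and 8.62 CPM (adjusted p = 0.82). CDKN2B (15.1 ± 0.950 and 14.3 ± 0.553 CPM), CDKN2C (13.5 ± 0.768 and 12.9 ± 1.83 CPM) and RB1 (118 ± 4.39 and 115 ± 2.49 CPM) were not called either. CDKN1B, the inhibitor p27, rose from 33.0 ± 1.18 to 39.2 ± 2.01 CPM.

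LMNB1, whose loss is a common marker of senescence, read 29.8, 24.4 and 25.2 CPM in Ctrl and 11.6, 10.6 and 9.93 CPM in PURPL#1-OE, 40.4% of control. HMGB2, a chromatin protein, fell from 159 ± 16.03 to 96.2 ± 6.22 CPM, while HMGB1 (352 ± 18.3 and 335 ± 5.62 CPM) was not called. GLB1, the gene of the lysosomal beta-galactosidase stained in senescence assays, fell by 0.31 on the log2 scale (43.1 ± 4.44 to 34.8 ± 2.38 CPM). IGFBP3 (1658 ± 90.4 to 1878 ± 33.1 CPM) rose by 0.18, and IGFBP5 (9052 ± 894 to 10271 ± 179 CPM) rose by 0.18 but lost its call without the first Ctrl library (adjusted p = 0.0884), without the second (0.0826) and without the second PURPL#1-OE library (0.0552). IGFBP7 (486 ± 54.7 and 555 ± 55.9 CPM) had an adjusted p of 0.061 and was called higher without the second Ctrl library (0.00515), without the first PURPL#1-OE library (0.0202) and without the second (0.0465), with DESeq2 (0.0411), with upper-quartile scaling (0.0381) and without a filter (0.00179). The panel therefore held lower proliferation and lamin B1 messages beside lower cytokine messages and no called rise in CDKN1A or CDKN2A.

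A few further stress and growth-control genes were read singly. MDM2, a ubiquitin ligase, fell by 0.20 (214 ± 7.88 to 186 ± 7.07 CPM). MYBBP1A fell by 0.40 (12.8 ± 1.51 to 9.78 ± 1.61 CPM) and lost its call without the third Ctrl library (adjusted p = 0.0623) and without the first PURPL#1-OE library (0.0771). ZMAT3, an RNA-binding protein, rose from 169 ± 2.94 to 244 ± 1.37 CPM and PERP, a desmosomal protein, from 212 ± 5.999 to 317 ± 10.6 CPM. GADD45A, a stress-induced growth arrest protein, fell from 129 ± 17.6 to 71.4 ± 3.65 CPM and the nuclease AEN from 25.6 ± 1.43 to 16.1 ± 0.997 CPM. ELAVL1, an RNA-binding protein, was called lower at -0.23 but lost the call in 3 of the 6 fits that left out a library, with adjusted p up to 0.159.

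**Figure D3:**
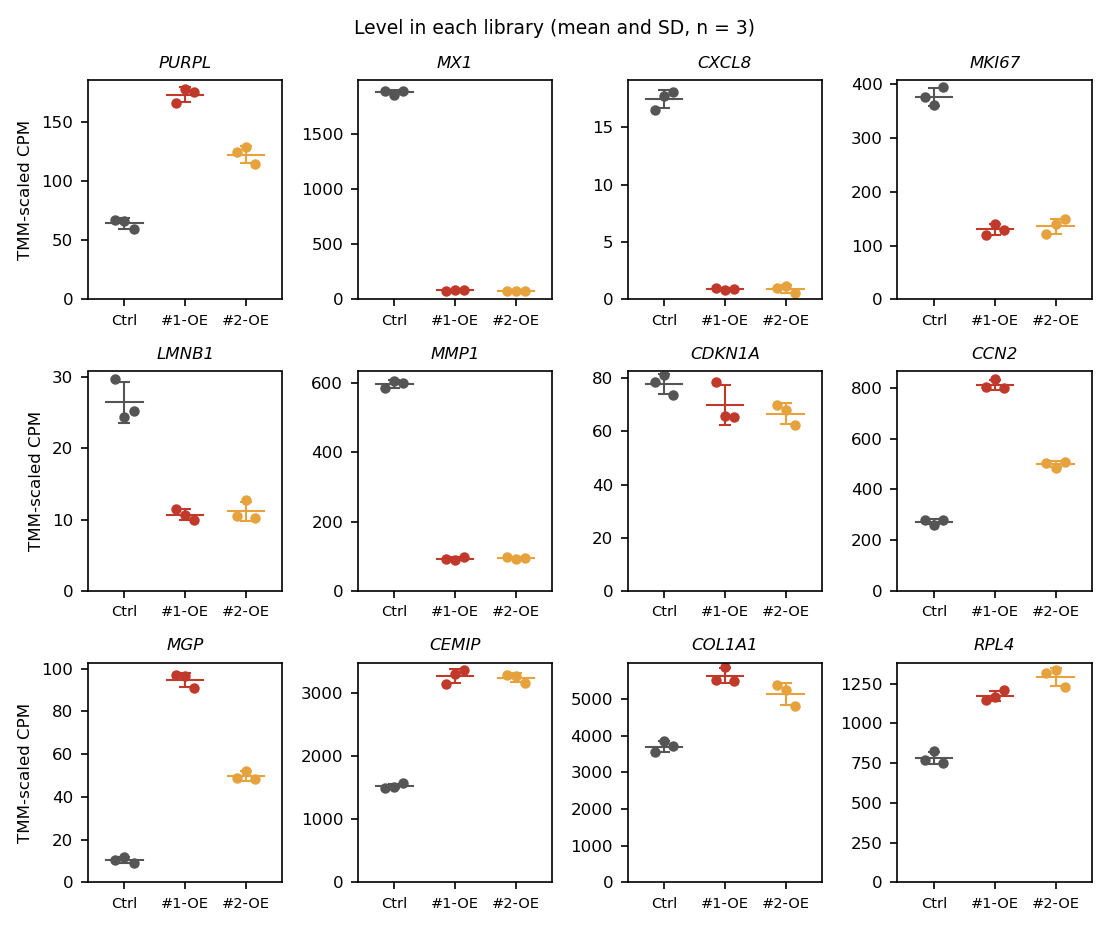
Levels of 12 genes in each library (points, TMM-scaled CPM from 0), with the mean and SD of 3 libraries, for Ctrl (grey), PURPL#1-OE (red) and PURPL#2-OE (yellow). PURPL is at 166 to 178 CPM in PURPL#1-OE against 59.2 to 67.3 in Ctrl, MX1, CXCL8, MKI67, LMNB1 and MMP1 are lower in every overexpression library, and only the panel of CDKN1A has groups that overlap between Ctrl and PURPL#1-OE.

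Genes of the contractile, matrix-making fibroblast tended to be higher. In the contractile and TGF-beta list 27 of 28 entries were tested, 17 rose and 4 fell, with a median of 0.38. TAGLN (177 ± 6.40 to 270 ± 8.40 CPM), ACTA2 (smooth muscle actin; 50.2 ± 3.03 to 79.2 ± 2.37 CPM), CNN2 (100.4 ± 3.07 to 164 ± 8.78 CPM) and the collagen receptor subunit ITGA11 (163 ± 3.38 to 366 ± 14.01 CPM) were among those that rose. TAGLN and ACTA2 share bases with another gene on their strand. The 4 that fell, named as exceptions, were ACTG2 (-1.71), TGFB2 (-0.61), TGFBR3 (-0.33) and SMAD3 (-0.19). Smooth muscle and pericyte markers were split, with 5 of 12 called higher and 3 called lower, and the summed level of all 12 was 347 to 388 CPM in Ctrl and 481 to 513 CPM in PURPL#1-OE; MYH11, the smooth muscle myosin, read 0.268 ± 0.0404 and 0.937 ± 0.412 CPM. The part of other cell types in these changes was not tested.

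Of 25 collagens, 14 rose and 7 fell, with a median of 0.31. COL1A1, the main collagen of dermis, read 3545, 3843 and 3717 CPM in Ctrl and 5523, 5863 and 5493 CPM in PURPL#1-OE, a 1.52-fold rise, and COL12A1 rose from 3261 ± 91.0 to 4948 ± 77.5 CPM. The basement membrane collagen COL4A5 rose from 58.0 ± 1.63 to 104 ± 0.481 CPM. COL6A3, of the beaded filaments, fell from 4393 ± 95.8 to 2711 ± 24.7 CPM. Of 35 elastic fibre and matricellular genes 18 rose and 9 fell. MGP, the matrix Gla protein that inhibits calcification, read 10.5, 11.8 and 8.88 CPM in Ctrl and 97.0, 96.6 and 90.9 CPM in PURPL#1-OE, a 9.04-fold rise. POSTN (periostin) fell from 241 ± 18.9 to 105 ± 5.97 CPM and CCN3 from 95.7 ± 4.45 to 40.3 ± 1.19 CPM. Among 23 proteoglycan and hyaluronan genes 11 rose and 5 fell: CEMIP, which breaks down hyaluronan, rose from 1525 ± 35.6 to 3261 ± 114 CPM and the synthase HAS2 fell from 12.7 ± 0.0638 to 3.69 ± 0.219 CPM. Of 19 tested fibroblast markers 13 rose and 3 fell, PDGFRA from 337 ± 23.1 to 554 ± 3.97 CPM upward and the mesenchymal factor PRRX1 from 597 ± 5.69 to 327 ± 8.99 CPM downward.

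In the list of ERK feedback and AP-1 genes 29 of 30 entries were tested, 18 fell and 2 rose, with a median of -0.64. FOSL1, an AP-1 subunit, fell from 82.8 ± 2.17 to 17.5 ± 1.57 CPM, JUN from 32.6 ± 1.69 to 14.8 ± 2.93 CPM and the ERK antagonist SPRY2 from 23.6 ± 1.52 to 11.99 ± 0.701 CPM. The 2 that rose, named as exceptions, were FOS (0.80) and DUSP1 (0.47). Of 13 tested IGF axis genes 8 rose and 1, the clearance receptor IGF2R (366 ± 6.07 to 286 ± 3.31 CPM), fell. IGF1 read 0.546, 0.508 and 1.14 CPM in Ctrl and 3.65, 4.09 and 3.09 CPM in PURPL#1-OE, and IGF2 rose from 22.1 ± 4.42 to 58.0 ± 3.60 CPM. Among 30 Wnt genes 12 rose and 8 fell: the ligands WNT2 (4.18 ± 0.973 to 15.5 ± 0.635 CPM) and WNT5A (1059.9 ± 24.8 to 1868 ± 45.9 CPM) rose and the antagonists DKK1 (298 ± 18.3 to 163 ± 7.06 CPM) and SFRP1 (614 ± 34.8 to 434 ± 22.1 CPM) fell. Of 35 axon guidance genes 10 rose and 10 fell. SLIT3, a guidance ligand, rose from 48.2 ± 4.82 to 176 ± 9.05 CPM while SLIT2 fell from 539 ± 22.0 to 285 ± 10.2 CPM. Of 25 NRF2 and antioxidant genes 9 rose and 4 fell. SOD2, the mitochondrial superoxide dismutase and an NF-kB target, fell from 639 ± 27.6 to 168 ± 6.28 CPM.

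Ribosomal protein genes rose together and by little. Of 54 tested, 40 rose, 0 fell and 14 were not called, with a median of 0.37, and their share of all counts was 1.67% to 1.81% in Ctrl and 2.16% to 2.22% in PURPL#1-OE. RPL4 read 771, 827 and 749 CPM in Ctrl and 1149, 1165 and 1210 CPM in PURPL#1-OE, and RPLP0 rose from 508 ± 51.9 to 768 ± 6.05 CPM. These genes have many processed copies, and 27 of the 54 share bases with another gene on their strand; among the remaining 27, 17 rose and 0 fell. Ribosome assembly factors went the other way, with 17 of 28 lower and 2 higher and a median of -0.29; the box C/D protein NOP58 fell from 77.7 ± 4.48 to 49.2 ± 0.511 CPM and MYC from 20.2 ± 1.23 to 12.3 ± 1.06 CPM. Of 15 mitochondrially encoded genes 4 were called higher and 0 lower, with a median of 0.30. That is 26.7% called, fewer than the 39.6% of all genes tested, of which 19.5% were called higher. MT-CO1 read 8977, 8660 and 9558 CPM in Ctrl and 11584, 14577 and 15804.5 CPM in PURPL#1-OE, and its first overexpression library was the lowest of the 3.

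Outside the lists, the largest rises were mostly in genes of low level. Besides MGP, the highest log2 fold changes among genes of at least 1 CPM with groups that did not overlap were those of ERP27 (3.42), GPR78 (3.28), CX3CR1 (the fractalkine receptor, 2.95), TM4SF20 (2.92), NF1P6 (2.80), SORBS2 (2.73), SLA (2.71), GDF7 (2.67) and CLSTN2 (2.62). GPR78 read 0.234, 0.156 and 0.258 CPM in Ctrl and 2.25, 2.29 and 1.82 CPM in PURPL#1-OE. CLSTN2, a synaptic adhesion protein, read 4.44, 4.61 and 4.39 CPM against 26.1, 28.1 and 28.5 CPM. SORBS2, an actin-binding adaptor, rose from 1.62 ± 0.153 to 10.9 ± 0.709 CPM. Lower in the order came TMC1 (2.42 ± 0.527 to 13.05 ± 0.613 CPM) and ABCA13 (2.95 ± 0.810 to 15.4 ± 1.26 CPM). GPR78, SORBS2, SLA and CLSTN2 share bases with another gene on their strand, and NF1P6, a pseudogene, lost its call without any 1 of the Ctrl libraries (adjusted p 0.118 to 0.164). Among the largest falls outside interferon genes were the dehydrogenase DHRS2, with 78 counts in Ctrl and 2 in PURPL#1-OE (ratio 43.0, 95% interval 11.5 to 361), and PDZD2, from 1.86 ± 0.183 to 0.0520 ± 0.0171 CPM.

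PURPL#1-OE and PURPL#2-OE were compared directly, since they share the control libraries and their separate contrasts are not independent. Between them 1888 genes (12.4% of those tested) were called, 945 higher in PURPL#1-OE (6.19%) and 943 lower (6.18%). PURPL was higher in PURPL#1-OE: PURPL#2-OE read 125, 129 and 114 CPM, all below 166, 178 and 176 CPM, a difference of 0.50 ± 0.0571 on the log2 scale (adjusted p = 1.81e-07). Side by side against Ctrl, the interferon list had a median of -3.23 in PURPL#1-OE and -3.33 in PURPL#2-OE, the mitosis list -1.22 and -1.23, and the ribosomal protein list 0.37 and 0.54. In the direct contrast 7 of 38 interferon genes were higher and 8 lower in PURPL#1-OE, 14 of 54 ribosomal protein genes were lower and 0 higher, and 8 of 21 secretome genes were lower and 0 higher. CCL2 was one of these, at 69.3 ± 2.67 CPM in PURPL#1-OE and 107.6 ± 5.03 CPM in PURPL#2-OE. MGP (94.8 ± 3.40 and 49.8 ± 2.17 CPM) and CCN2 (812 ± 20.7 and 500.1 ± 13.5 CPM) were higher in PURPL#1-OE.

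The genes with the largest log2 differences between the overexpression groups, of which 6 each way were taken, were of low level. KRT4, a keratin of stratified mucosa, read 2.40, 2.29 and 2.61 CPM in PURPL#1-OE and 0.00, 0.648 and 0.0820 CPM in PURPL#2-OE, with 0.351, 0.391 and 0.568 CPM in Ctrl. The noncoding LINC01934 read 4.36, 4.09 and 3.96 CPM against 0.586, 0.602 and 0.697 CPM, and Ctrl read 0.779, 0.899 and 0.671 CPM. In both, PURPL#1-OE stood apart and PURPL#2-OE lay near Ctrl. LINC02479 and EGFL6 showed the reverse. LINC02479 had 86 counts in PURPL#2-OE, 2 in PURPL#1-OE and 0 in Ctrl, a ratio of PURPL#2-OE to PURPL#1-OE of 49.97 with a 95% interval of 13.4 to 419. EGFL6, a secreted matrix ligand, read 1.93, 1.89 and 1.503 CPM in PURPL#1-OE and 7.62, 10.3 and 9.71 CPM in PURPL#2-OE. ADH1B, an alcohol dehydrogenase, fell in PURPL#1-OE, from 2.35 ± 0.355 to 0.657 ± 0.294 CPM, and read 2.80 ± 0.379 CPM in PURPL#2-OE.

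**Figure D4:**
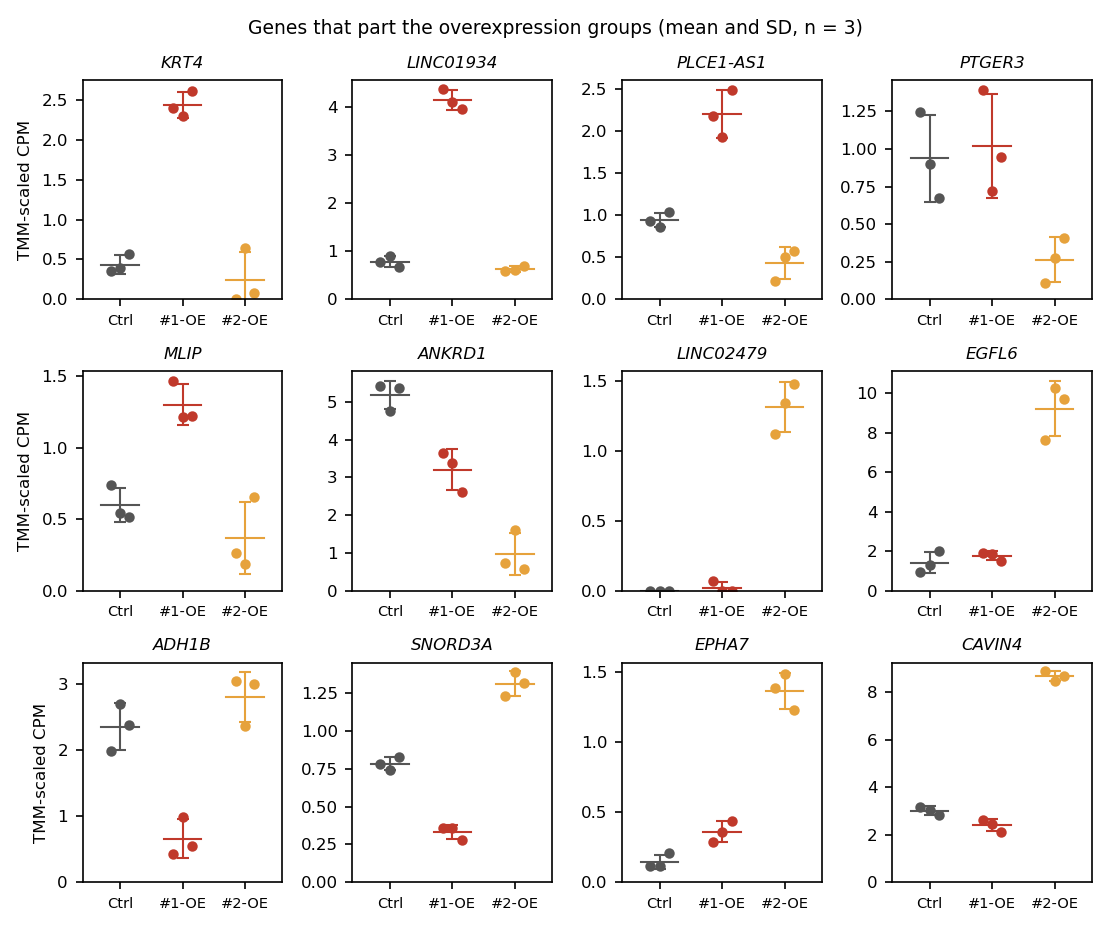
Levels (points, TMM-scaled CPM from 0; mean and SD of 3 libraries) of the 6 genes highest and the 6 lowest in PURPL#1-OE against PURPL#2-OE. KRT4 and LINC01934 are highest in PURPL#1-OE, while LINC02479, EGFL6, EPHA7 and CAVIN4 are highest in PURPL#2-OE, and the highest library of any gene shown is at 10.3 CPM.

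The guide experiment lowered PURPL, by 2.36 on the log2 scale with sgRNA-PURPL#1 and by 2.06 with sgRNA-PURPL#2 against sgCtrl, and has its own controls. Its table was deposited and normalized separately. Over 13638 genes tested in both tables, the log2 fold changes of PURPL#1-OE and the mean of the guides had a Pearson correlation of 0.058 and a Spearman correlation of 0.087 across genes, given as a description only. Among these genes 2839 (20.8%) were higher and 2872 (21.1%) lower in PURPL#1-OE, and 923 (6.77%) were higher and 1122 (8.23%) lower with both guides. Genes higher in PURPL#1-OE and lower with both guides numbered 220, which is 7.75% of the first list and 19.6% of the second. Genes lower in PURPL#1-OE and higher with both guides numbered 253 (8.81% and 27.4%). Genes lower in both experiments numbered 531 (18.5% and 47.3%), and genes higher in both 273 (9.62% and 29.6%). The effect of PURPL#1-OE differed from the mean effect of the guides in 4882 of 15166 genes (32.2%), and was below it in 2610 (17.2%).

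Of the 38 interferon genes, 19 rose with sgRNA-PURPL#1 and 32 with sgRNA-PURPL#2, against 11.6% and 11.9% of all genes tested in both tables, 0 fell with either, and the medians were 0.20 and 0.39 against -3.23 in PURPL#1-OE. The difference was called for 38 of 38. RSAD2 rose by 0.51 and 0.81 with the guides and fell by 6.94 in PURPL#1-OE (difference -7.61 ± 0.129, adjusted p = 1.65e-37), and CXCL8 rose by 1.80 and 2.03 and fell by 4.25. The control groups started from different levels: MX1 read 759 ± 45.3 CPM in sgCtrl and 1874 ± 19.2 CPM in Ctrl, RSAD2 24.8 ± 1.28 and 315 ± 8.18 CPM, and CXCL8 0.477 ± 0.272 and 17.5 ± 0.794 CPM. MX1 in sgCtrl was thus above its 82.8 ± 5.22 CPM in PURPL#1-OE, whereas CXCL8 in sgCtrl was no higher than its 0.909 ± 0.0808 CPM there. The tables were normalized separately, so these levels stand side by side with no test.

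Cell cycle genes were mostly lower with the guides too. Of 42 mitosis genes, 41 fell with sgRNA-PURPL#1 and 38 with sgRNA-PURPL#2, against 13.1% and 12.6% of all genes, with medians of -0.93 and -0.56, and 30 of 42 were further down in PURPL#1-OE by the test of the difference. Of 39 replication genes, 32 and 36 fell. MKI67 fell by 1.00 and 0.67 with the guides and by 1.54 in PURPL#1-OE, and RRM2 by 1.17 and 1.13 against 1.33, where the difference was not called (-0.19 ± 0.0827, adjusted p = 0.0746). LMNB1 fell by 0.72 and 1.03 with the guides and by 1.31 in PURPL#1-OE. MMP1 differed in direction, rising by 0.56 and 0.77 with the guides, and MMP3 did not, falling by 1.07 and 0.58.

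Beyond PURPL, genes that rose in PURPL#1-OE, fell with both guides and differed most between the experiments were C10orf105, DBNDD1, GABBR2, HSPB3 and ERICH5. HSPB3, a small heat shock protein, read 1.83, 1.68 and 1.76 CPM in Ctrl and 7.12, 6.65 and 6.76 CPM in PURPL#1-OE, and fell by 0.66 and 1.14 with the guides. GABBR2, a GABA-B receptor subunit, read 24.5, 24.4 and 26.0 CPM against 28.7, 33.6 and 30.7 CPM, a rise of 0.31, and fell by 3.34 and 1.98 with the guides. It was 0.58 higher in PURPL#1-OE than in PURPL#2-OE, where it read 19.03, 22.1 and 20.7 CPM. C10orf105 rose by 0.56 and fell by 4.41 and 3.45, and DBNDD1 rose by 1.63 and fell by 1.28 and 1.68. ERICH5 (0.85, adjusted p = 0.0489) lost its call in 5 of the 6 fits that left out a library.

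**Figure D5:**
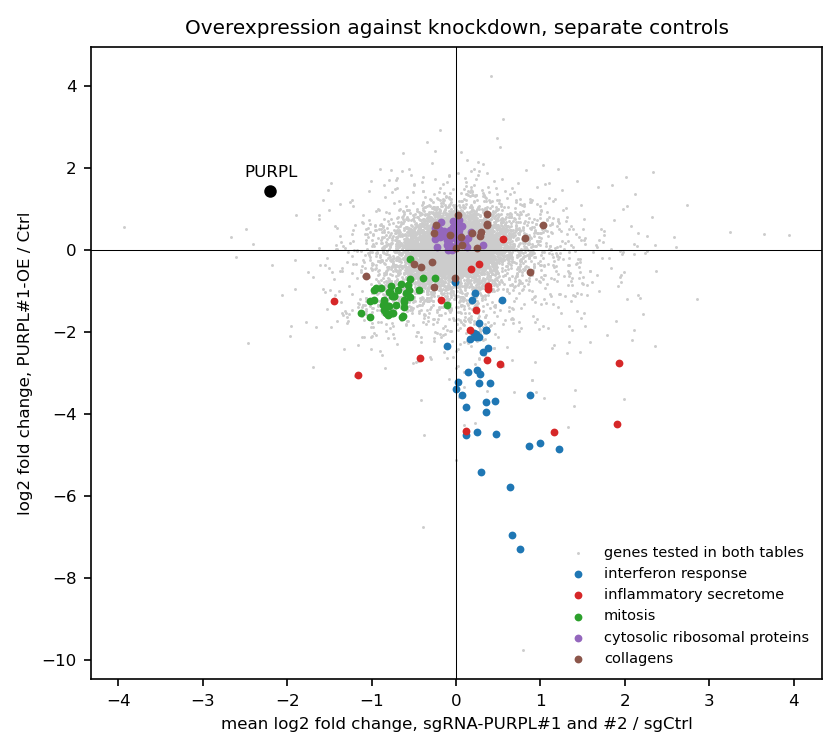
Each point is 1 of 13638 genes, with the mean log2 fold change of sgRNA-PURPL#1 and sgRNA-PURPL#2 over sgCtrl on the horizontal axis and that of PURPL#1-OE over Ctrl on the vertical axis, and members of 5 lists in colour. PURPL (black) is at upper left, interferon genes (blue) run from 0 downward and to the right, and mitotic genes (green) lie at lower left.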

How the data were processed

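Poly(A)-selected RNA of BJ fibroblasts was reverse-transcribed with random hexamers and amplified with 18 PCR cycles without molecular identifiers, per the labels' protocols (the molecule field reads genomic DNA). The authors deposited raw read counts per gene, 1 table per experiment. The submitters' processing notes name the aligner HISAT2 2.1.0, the counter featureCounts 2.0.1 and the build GRCh38.p13, while the strand setting is not given in the sources used here. Same-strand genes nested in a larger gene had 0 counts, so counts of partly overlapping genes are uncertain. Of the 15267 genes tested 4939 overlapped in part, and those marked in the text are not the only ones named. TOP2A, KIF4A, PCNA, GDF15, GLB1, MDM2, HMGB1, RB1 and LINC01934 are further examples.

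Columns were matched to groups by their headings; those of PURPL#1-OE carry no replicate number. Counts of the 9 libraries of the overexpression table were fitted in edgeR 4.0.16 (R 4.3.3, limma 3.58.1): filterByExpr (minimum count 10, total 15), TMM scaling, robust quasi-likelihood test with 6 residual degrees of freedom, Benjamini-Hochberg adjustment over all genes tested, threshold 0.05. Levels are CPM, counts divided by TMM-scaled library sizes, and marker sums use library totals. The guide contrast came from 1 fit of all 18 libraries. Total counts of 19316454 to 27985649 per library limit the precision of genes near 1 CPM, and intervals cover counting error only.

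Genes named are PURPL, the senescence panel, the 15 highest and 15 lowest log2 fold changes among called genes of at least 1 CPM whose groups do not overlap, up to 6 members per list with the smallest adjusted p, 6 each way against PURPL#2-OE and 6 each way among genes opposite to both guides; exceptions are marked in the text. Some genes and 1 list that the rule names are not reported here. Members and the 44 gene lists were chosen with earlier results of these data known. Alternatives were DESeq2 1.42.0, upper-quartile scaling, library totals, other filters, 6 libraries only, no mitochondrial genes, a threshold of 0.01 and leaving out each Ctrl and PURPL#1-OE library. The alternatives without partly overlapping genes, and without each PURPL#2-OE library (for the contrast with PURPL#2-OE), were added after seeing the data. Replicates differed by more than sampling noise (chi-square per gene 3.51 to 8.71). Each was treated as 1 sample, but this spread does not tell whether replicates were separate cultures.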

Additional observations from a re-analysis of the deposited data

Results flagged for a closer look

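The genes below differed between PURPL#1-OE and PURPL#2-OE by the direct test (edgeR's quasi-likelihood test, adjusted over 15267 genes), so the same contrast with Ctrl gave unlike effects. Values are log2 differences, PURPL#1-OE minus PURPL#2-OE, and each stayed called in the 9 fits that left out 1 library (PTGER3 with an adjusted p up to 0.0495). KRT4 (3.28, adjusted p = 5.24e-05), LINC01934 (2.70) and PLCE1-AS1 (2.30) were called higher than Ctrl in PURPL#1-OE. MLIP (1.76) was called higher as well, but lost the call against Ctrl without the second Ctrl library (adjusted p = 0.057), without the third (0.0546) and without the first PURPL#1-OE library (0.0688). PTGER3, a prostaglandin receptor, differed by 1.89 while its PURPL#1-OE level (1.02 ± 0.344 CPM) lay among the Ctrl values (0.939 ± 0.290 CPM). ANKRD1, a cardiac ankyrin repeat protein and YAP target, differed by 1.72 and read 5.19 ± 0.361 CPM in Ctrl, 3.21 ± 0.537 in PURPL#1-OE and 0.980 ± 0.561 in PURPL#2-OE.

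On the lower side, LINC02479 differed by -5.38 (adjusted p = 1.09e-06) and EGFL6 by -2.38. ADH1B (-2.12) and SNORD3A (-1.97) were called lower than Ctrl in PURPL#1-OE. SNORD3A is a small nucleolar RNA without a poly(A) tail, so its counts in poly(A)-selected libraries are uncertain. EPHA7, an ephrin receptor, differed by -1.91 and CAVIN4, a caveolar coat protein, by -1.84; neither was called against Ctrl in PURPL#1-OE.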

How the results depend on the processing

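The count of 6047 called genes stayed between 5132 and 5533 when each Ctrl and PURPL#1-OE library was left out in turn, and was 6283 with only the 6 libraries, 5529 with DESeq2, 6030 with upper-quartile scaling, 6018 with library totals, 5756 without a filter, 5811 with a 1 CPM filter and 4422 at an adjusted p under 0.01. Without genes that partly share bases on 1 strand, 10328 genes were tested and counts fell: 3990 called and 1889 higher against Ctrl, 1203 called, 584 higher and 619 lower against PURPL#2-OE, and 3219 called and 1458 above in the contrast with the guides. At an adjusted p under 0.01 the contrast with PURPL#2-OE gave 1055 calls, 540 higher and 515 lower. Leaving out each of the 9 libraries in turn gave 600 to 1052 genes lower than in PURPL#2-OE against 943 with all, and 600 was the value without the first PURPL#1-OE library; the cause was not tested. PURPL ranged from 1.37 to 1.46 over the fits without 1 library. Scaling moved the median of all genes by -0.044 to 0.022. Of the results for named genes under the alternatives, 67 lost the call and 11 gained it in the same direction. Among genes called under the main settings 0 reversed. The remaining 4081 counted as unchanged, a class that takes in any gene uncalled under the main settings whose direction flipped. Of 1978 counts and medians of gene lists under the alternatives, 78 counts moved by over 1.5 times and 89 medians by more than the spread between libraries; 24 and 14 of these came without partly overlapping genes, which leaves fewer members, and 7 and 20 with library totals. No paired analysis was possible because the PURPL#1-OE columns carry no replicate numbers. Depth limits genes near or under 1 CPM.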

Other observations

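Called rises were more frequent among long transcripts. Over 12296 protein-coding genes split into 5 equal groups by annotated transcript length, 14.6% of the shortest group and 27.3% of the longest were called higher in PURPL#1-OE, while the shares called lower were 21.2% and 23.8%. The medians were -0.036 and 0.017 on the log2 scale. Of the long noncoding RNAs, 374 of 2383 tested were called higher and 210 lower, with a median of 0.14, against 2517 higher and 2810 lower of 12311 protein-coding genes. Calls in either direction were thus rarer among the noncoding RNAs, at 24.5% against 43.3% of protein-coding genes. A gene with fewer reads is harder to call. The part of read number in these shares, by length and by gene type, was not tested. In the list of known noncoding RNAs, CARMN, a cardiovascular RNA (14.3 ± 1.23 to 29.6 ± 1.41 CPM), HOTAIR (50.1 ± 3.17 to 75.4 ± 2.73 CPM) and the growth-arrest RNA GAS5 (72.8 ± 5.89 to 108 ± 4.18 CPM) rose, and FENDRR fell (18.5 ± 1.27 to 10.5 ± 0.956 CPM).

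Chaperone and metabolic lists held a few strong members. HSPB7, a small heat shock protein of muscle, rose from 5.02 ± 0.635 to 14.9 ± 1.07 CPM while DNAJA1 fell from 843 ± 75.7 to 498 ± 4.98 CPM, and 2 of 14 heat shock genes were higher and 6 lower. The glucose transporter SLC2A1 rose from 59.0 ± 0.876 to 97.2 ± 2.27 CPM and hexokinase HK2 fell from 78.1 ± 3.31 to 33.8 ± 0.718 CPM, with 5 of 30 glycolysis and hypoxia genes higher and 15 lower. Among ion channels, TRPC6, a calcium-permeable channel, rose from 39.2 ± 1.52 to 111 ± 1.16 CPM and the potassium channel KCNK2 fell from 109 ± 7.31 to 58.2 ± 1.15 CPM, with 6 of 32 higher and 10 lower. Of 31 tested genes of cholesterol and fatty acid synthesis 3 were higher and 11 lower, which at 45.2% called is near the 39.6% of all genes.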
